A study of Mus musculus with 8 samples.

Results

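Listed RNA levels of 6 innate cytokine and NF-kappaB signalling genes were described after knockdown of Paupar, a long non-coding RNA, in mouse neural stem cells. Signalling itself was not measured. The genes are the cytokine Il33, the chemokine Cxcl14, the endotoxin receptor Tlr4, Tnfaip3, which encodes A20, Relb, which encodes a subunit of NF-kappaB, and the paracaspase gene Malt1. They are 6 of the 155 distinct features in the authors' deposited table, and each was chosen by name after their fold changes and adjusted p-values in that same table were known. Their levels and fold changes are therefore given as a description, and no test of them is added here. The study sequenced RNA from cultured cells of the subventricular zone, the stem cell niche along the lateral ventricles, grown with EGF and FGF-2. All 8 samples are described as nucleofected with hairpin RNA, 4 labelled shPaupar and 4 labelled control, and the labels give no strain, age, clone or time after nucleofection and no sequence for either hairpin. The authors' deposited table holds 1 level per group, so no spread between samples, no depth and no separate sample value can be shown.

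In innate immune cells, Tlr4 senses bacterial endotoxin and its adaptors activate the IkappaB kinases, which release NF-kappaB dimers to the nucleus. MALT1, in a complex with BCL10 and a CARD protein, feeds antigen receptor signals into the same kinases and cuts several substrates, A20 and RelB among them. A20 edits ubiquitin chains and restrains the pathway, and RelB is the transcription factor subunit of the alternative, NIK-driven branch. IL-33 is an alarmin held in the nucleus and released by damaged cells, in brain mainly by glia, and CXCL14 is a homeostatic chemokine of epithelia and brain.

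The 6 members are not the same kind of measurement. Il33, Cxcl14 and Tlr4 are whole-gene rows, whose listed loci equal the gene spans of the GENCODE M21 annotation (assembly GRCm38). The rows of Tnfaip3 and Malt1 have the locus of an annotated retained-intron transcript, a non-coding RNA of the gene that keeps intron sequence, so they do not stand for the gene's total RNA. The locus of Relb equals the whole gene, 2 of its coding transcripts and 3 retained-intron transcripts alike. It was placed with the transcript rows because its adjusted p of 0.0195 in the authors' deposited table is below the 0.0197 of the whole-gene row Lsp1, although its p-value of 7.35e-05 is larger than the 6.93e-05 of Lsp1, an order that Benjamini-Hochberg adjustment cannot give within 1 set of tests. Of the 155 features, 123 were placed as whole-gene rows and 32 as transcript rows. For Relb, Tnfaip3 and Malt1 there were 0 whole-gene rows, so the total RNA of these genes was not analysed here.

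Every row of the table passed an adjusted p of 0.05, so passing it sets no member apart. The adjusted p-values imply 29506 tests behind the whole-gene rows, of which at least 0.481% were called. For the transcript rows they imply 89072 tests, of which at least 0.617% were called. Each share counts only up to the last listed row, whose adjusted p lies below 0.05. Whole-gene rows were lower in shPaupar cells in 73.2% of cases and higher in 26.8% in the authors' deposited table, beside 2 members lower and 1 higher. Among the transcript rows 34.4% were lower and 65.6% higher, beside 2 members lower and 1 higher. The implied ranks leave at least 518 called transcript features and at least 19 called whole-gene features without a row. All shares and ranks among rows therefore describe the listed rows and not all called features. The median deposited log2 fold change of the 3 whole-gene members was -0.73 per the authors' deposited table, against -0.50 over the 112 whole-gene rows above 0 in both groups. The members' median is the value of Cxcl14 and does not show the increase of Tlr4, at 2.14. Nothing is read from this difference, since the members were chosen with their values known. A log2 fold change of 1 or more in size was reached by 29.3% of whole-gene rows, Tlr4 among them, and by 100% of transcript rows.

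**Figure D1:**
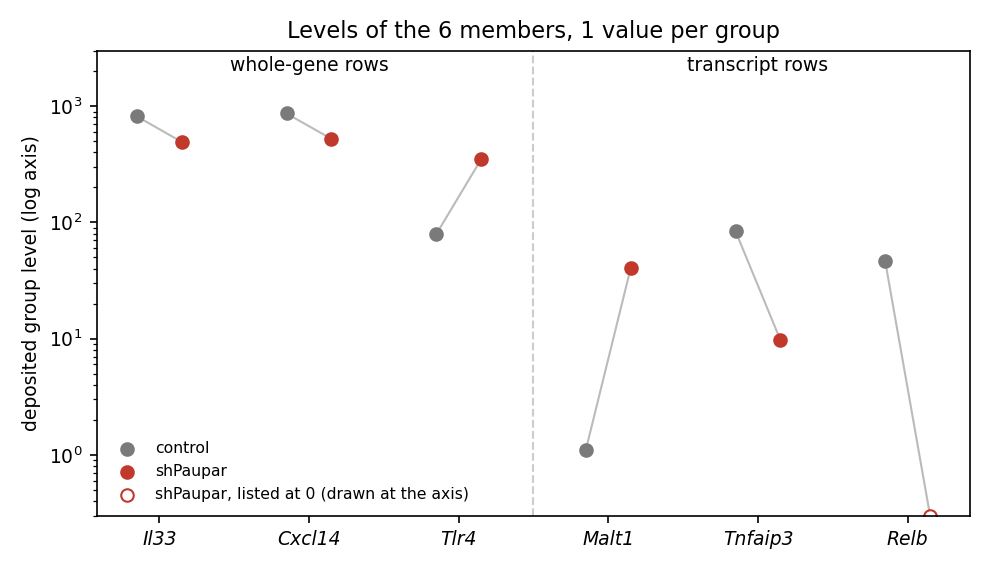
Deposited level of each member (vertical, log axis) in control (grey) and shPaupar cells (red), 1 value per group with no error available. Il33 and Cxcl14 lie lower in shPaupar cells with lines of nearly equal slope and Tlr4 lies higher, while the transcript rows of Malt1, Tnfaip3 and Relb span wider gaps, Relb being listed at 0 in shPaupar cells.

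Both ligand genes were lower after knockdown, and by nearly the same factor. Il33 (ENSMUSG00000024810, chromosome 19, 29925114 to 29960718, plus strand) stood at 817 in control and 493 in shPaupar cells per the authors' deposited table. The log2 ratio computed from these levels was -0.73, a control level 1.66 times that of shPaupar cells, with an adjusted p of 2.14e-05 in the authors' deposited table, the 8th smallest of the whole-gene rows. Cxcl14 (ENSMUSG00000021508, chromosome 13, 56288643 to 56296551, minus strand) stood at 865 in control and 523 in shPaupar cells per the authors' deposited table. Its log2 ratio was also -0.73, a 1.65-fold higher control level, with an adjusted p of 0.000200 in the authors' deposited table. In bulk RNA, fewer cells making a transcript and less transcript per cell cannot be told apart, for these genes and for those that follow.

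In size of change both genes stood in the middle of their kind, Il33 30th and Cxcl14 31st of the 83 lower whole-gene rows above 0 in both groups. On the assumption that the authors' p-values are those of a Wald test, two-sided, the standard error derived from the authors' deposited table of the log2 fold change was 0.126 for Il33 and 0.138 for Cxcl14. The corresponding 95% intervals ran from -0.977 to -0.483 and from -0.996 to -0.456. The first lies within the second, so nothing is read from the order of the pair. Each interval, here and for later members, only restates the deposited fold change and p-value of a row that had passed on adjusted p. It therefore excludes 0 by construction and is no added test. Leaving out unnamed loci and Gm or Rik symbols, here and for every member, the whole-gene rows nearest to Il33 in both listed group levels on the log2 scale were Pyroxd2, at 771 in control and 509 in shPaupar cells per the authors' deposited table, and Cxcl14 itself. Those nearest to Cxcl14 were the potassium channel interacting protein gene Kcnip1 (820 and 545) and the malic enzyme gene Me3 (835 and 558) in the authors' deposited table. This likeness rests on 2 group levels per gene.

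RefSeq promoters (GRCm38.p6) were at hand for 3 of the 6 members, Il33, Cxcl14 and Tnfaip3, and were searched for the classical kappaB consensus, the decamer bound by NF-kappaB dimers, on both strands of the 250 bases before each start. Of 32851 promoters in the table, 2382 (7.25%) hold at least 1 match in this window. The windows of Il33 and Cxcl14, shown because these genes fell by nearly the same factor, hold 0 matches, as does that of a second, downstream start of Il33, not printed. No match says only that these letters are not in the window. The sequences run 5′ to 3′ on the gene's strand, Il33 at chr19:29924863-29925112 (plus) and Cxcl14 at chr13:56296552-56296801 (minus).
Il33 promoter: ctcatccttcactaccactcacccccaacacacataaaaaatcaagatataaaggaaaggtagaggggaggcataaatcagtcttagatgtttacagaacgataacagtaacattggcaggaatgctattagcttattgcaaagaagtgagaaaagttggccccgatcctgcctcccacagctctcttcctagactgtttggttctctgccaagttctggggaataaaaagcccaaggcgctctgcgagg
Cxcl14 promoter: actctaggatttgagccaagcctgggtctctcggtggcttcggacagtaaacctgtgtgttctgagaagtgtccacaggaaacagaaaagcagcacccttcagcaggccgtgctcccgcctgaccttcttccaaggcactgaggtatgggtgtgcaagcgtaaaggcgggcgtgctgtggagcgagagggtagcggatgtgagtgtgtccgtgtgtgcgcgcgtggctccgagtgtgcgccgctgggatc

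The endotoxin receptor gene Tlr4 was higher after knockdown, unlike Il33 and Cxcl14. Tlr4 (ENSMUSG00000039005, chromosome 4, 66827584 to 66930284, plus strand) stood at 79.1 in control and 349 in shPaupar cells per the authors' deposited table. This is a 4.41-fold higher level and a log2 ratio of 2.14, with an adjusted p of 0.000564 in the authors' deposited table. It was the third largest increase among the 29 higher whole-gene rows above 0 in both groups, and the largest change of the 3 whole-gene members. Under the Wald assumption its standard error was 0.427 and its 95% interval 1.30 to 2.98, a wider interval than those of Il33 and Cxcl14. Leaving out unnamed loci and Gm or Rik symbols, the nearest whole-gene row, the antiviral synthetase gene Oas1a, was at 251 in control but 424 in shPaupar cells, and the focal adhesion adaptor gene Tgfb1i1 at 286 and 457, per the authors' deposited table.

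In brain, Tlr4 is best known from microglia. Of 15 microglia and macrophage markers, such as Aif1, Cx3cr1 and P2ry12, 0 had a row in the authors' deposited table, and the same was true of 8 endothelial, 8 mural and fibroblast and 11 oligodendrocyte lineage markers. Levels of these markers were not analysed here, so the part of such cells in the Tlr4 difference was not tested. Of 16 neural stem cell and astroglial markers 4 were rows and all 4 were lower. The glutamate transporter gene Slc1a2 stood at 50039 in control and 39308 in shPaupar cells, the aldolase gene Aldoc at 5655 and 4200, the water channel gene Aqp4 at 4268 and 3118, and the amino acid transporter gene Slc7a10 at 127 and 61.4, all per the authors' deposited table. Of 7 neuroblast markers, Dcx was the 1 row, at 286 and 152 in the authors' deposited table. Lower rows make up 73.2% of all whole-gene rows, the other 12 markers of this list have no value here, and the part of cell composition in the Il33 difference was not tested. The identity of the cells could not be checked further, since a marker that is no row has no value here.

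**Figure D2:**
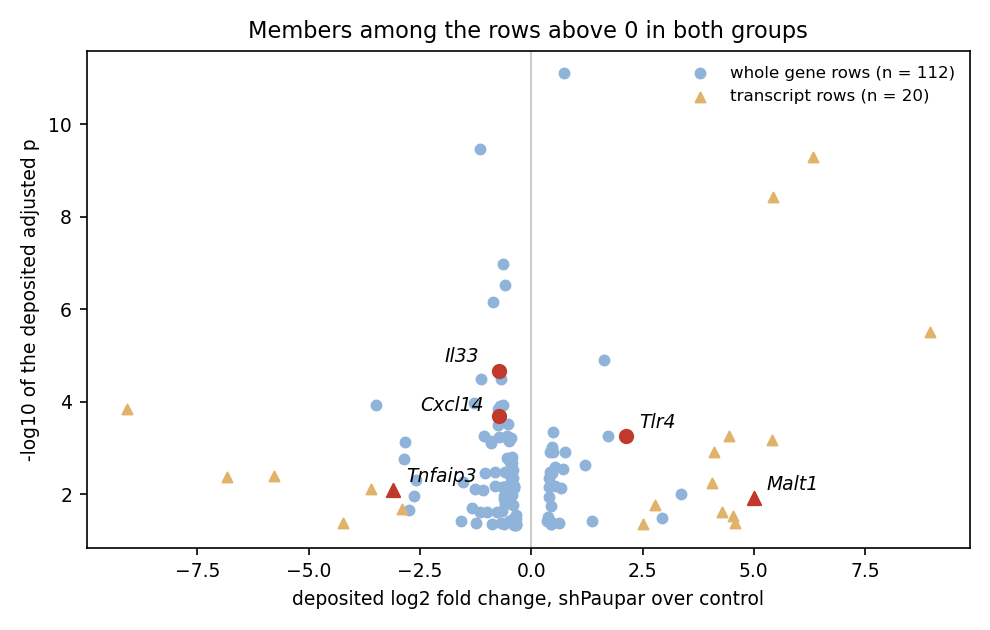
Deposited log2 fold change (horizontal) against -log10 of the deposited adjusted p (vertical) for the 112 whole-gene rows (blue circles) and 20 transcript rows (yellow triangles) above 0 in both groups, with the members in red. Il33 and Cxcl14 lie in the crowd of modest decreases, Tlr4 at 2.14 lies right of nearly all whole-gene increases, and Malt1 and Tnfaip3 lie within the wide range of the transcript rows. Relb is not drawn, because it is listed at 0 in shPaupar cells.

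Of the intracellular members, all of them transcript rows, that of Tnfaip3 was lower, which does not give the direction of the gene's total RNA. The row of Tnfaip3 (ENSMUSG00000019850, chromosome 10, 19000929 to 19015376, minus strand) stood at 84.1 in control and 9.73 in shPaupar cells per the authors' deposited table. The computed log2 ratio was -3.11, a control level 8.64 times that of shPaupar cells, with an adjusted p of 0.00823 in the authors' deposited table. By size it was 6th of the 7 lower transcript rows above 0 in both groups. Among all transcript rows above 0 in both groups, the smallest size of a log2 fold change was 2.51 per the authors' deposited table. Under the Wald assumption the standard error of its log2 fold change was 0.724, with a 95% interval from -4.52 to -1.68. The nearest transcript rows in both levels were those of the splicing factor gene Prpf40b (39.3 in control and 3.11 in shPaupar cells) and the Golgi complex gene Cog7 (121 and 2.08) per the authors' deposited table.

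The listed locus equals 1 of 6 annotated Tnfaip3 transcripts, Tnfaip3-205, and differs from the gene span (19000910 to 19015657). Tnfaip3-205 has 7 exons and 6199 bases, where the coding transcript Tnfaip3-201 has 9 exons and 4422 bases. It keeps intron 5 (19005732 to 19006862, 1131 bases) and intron 7 (19003758 to 19004456, 699 bases) of Tnfaip3-201 whole, and splices the other introns. These 1830 bases, 29.5% of its length, lie in no coding transcript of the gene, and the other 70.5% are shared with coding transcripts. How the authors' counting divided reads over the shared bases is not given in the sources used here. Read from the start codon of Tnfaip3-201, the frame of Tnfaip3-205 meets a TAA stop 123 bases into intron 5, after 309 codons, where the coding transcript has 775. The boundaries of both kept introns are printed 5′ to 3′ on the minus strand, intron bases in capitals and flanking exon bases in lower case. Both introns begin with GT and end with AG, as spliced introns do.
Intron 5 start, chr10:19006803-19006892: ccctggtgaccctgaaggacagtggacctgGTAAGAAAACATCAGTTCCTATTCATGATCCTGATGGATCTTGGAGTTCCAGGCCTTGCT
Intron 5 end, chr10:19005702-19005791: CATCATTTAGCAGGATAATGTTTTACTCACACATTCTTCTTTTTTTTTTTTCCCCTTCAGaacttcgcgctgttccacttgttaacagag
Intron 7 start, chr10:19004397-19004486: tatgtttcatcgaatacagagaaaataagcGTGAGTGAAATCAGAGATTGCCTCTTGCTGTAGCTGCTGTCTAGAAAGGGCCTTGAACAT
Intron 7 end, chr10:19003728-19003817: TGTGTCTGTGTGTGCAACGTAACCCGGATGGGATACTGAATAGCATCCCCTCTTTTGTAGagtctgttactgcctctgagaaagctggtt

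Tnfaip3 is itself a known target of NF-kappaB, which makes A20 a feedback inhibitor, and its promoter is shown for that reason. The 250 bases before the RefSeq start (chr10:19015411-19015660, minus strand) hold 2 matches to the kappaB consensus, in capitals, the first from 125 to 116 bases before the start, read on both strands, and the second nearest the start, read on the opposite strand. A match describes letters and is not a measured binding site. A second, downstream RefSeq start of Tnfaip3 has 0 matches.
Tnfaip3 promoter: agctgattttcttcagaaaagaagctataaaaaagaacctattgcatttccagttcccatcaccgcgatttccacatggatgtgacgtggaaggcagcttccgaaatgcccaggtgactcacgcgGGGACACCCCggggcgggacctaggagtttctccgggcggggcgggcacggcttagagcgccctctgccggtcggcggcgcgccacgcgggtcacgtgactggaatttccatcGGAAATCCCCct

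The row of Relb was listed at 0 in shPaupar cells. Relb (ENSMUSG00000002983, chromosome 7, 19606217 to 19629438, minus strand) stood at 46.4 in control cells and had an adjusted p of 0.0195, both from the authors' deposited table. No fold is given against a level of 0, and with no counts at hand no lower bound can be set. It was 1 of 4 transcript rows listed at 0 in shPaupar cells, beside 8 listed at 0 in control cells. The nearest transcript rows were those of the kainate receptor gene Grik1, at 29.0 in control cells and listed at 0 in shPaupar cells, and of Gkap1, at 72.7 and 0.514 in the authors' deposited table.

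The Relb locus also fits the coding transcripts Relb-201 and Relb-202, so which transcript the row stands for is not known. The 3 retained-intron transcripts that fit the Relb locus, Relb-205, Relb-206 and Relb-208, differ from the coding transcript Relb-201 mainly by the same block. Each extends exon 5 upstream by 966 bases (19616438 to 19617403) of the 1324-base intron 4, so that part of the intron is kept and the rest is spliced out. Of bases in no coding transcript, Relb-206 has this block alone, Relb-205 also has a 35-base exon in intron 2, and Relb-208 has 58 further bases of intron 4 and 40 bases of intron 8. Relb-205 and Relb-208 also hold a very short exon in intron 2 that the coding transcript Relb-202 shares. Bases in no coding transcript make up 31.2% of Relb-205, 30.5% of Relb-206 and 32.5% of Relb-208. Read from the start codon of Relb-201, which has 555 codons, the frame ends after 66 codons in Relb-205, 237 in Relb-206 and 236 in Relb-208, each at a TGA. The limits of the block in Relb-206 are printed 5′ to 3′ on the minus strand, the block in capitals. At its start, exon 4 is spliced to the block, and at its end the block runs into exon 5 through the AG where intron 4 ends.
Block start, spliced, chr7:19617344-19617791 with a gap: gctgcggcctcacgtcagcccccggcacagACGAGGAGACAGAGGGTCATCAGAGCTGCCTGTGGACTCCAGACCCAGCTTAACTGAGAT
Block end, chr7:19616408-19616497: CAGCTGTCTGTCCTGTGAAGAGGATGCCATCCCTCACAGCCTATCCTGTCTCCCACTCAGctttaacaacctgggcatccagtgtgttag

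**Figure D3:**
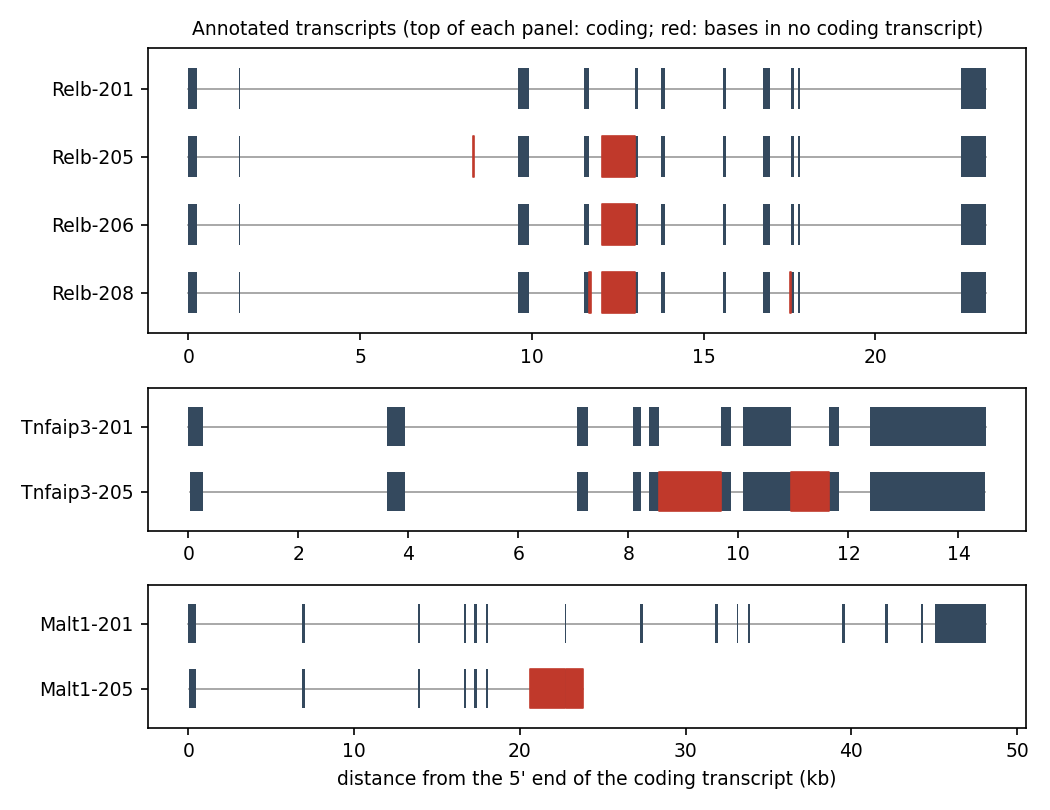
Annotated exons (boxes) and introns (lines) of the coding transcript and of the retained-intron transcripts whose span equals the listed locus, for Relb, Tnfaip3 and Malt1, drawn to scale against the distance in kb from the 5' end of the coding transcript. Red marks bases in no coding transcript of the gene, 966 bases before exon 5 in all 3 Relb transcripts, introns 5 and 7 in Tnfaip3-205, and intron 7 with part of intron 8 in the last exon of Malt1-205.

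The transcript row of Malt1 differed from those of Tnfaip3 and Relb in direction, which does not give the direction of the gene's total RNA. The row of Malt1 (ENSMUSG00000032688, chromosome 18, 65431008 to 65454746, plus strand) stood at 1.11 in control and 40.6 in shPaupar cells per the authors' deposited table. The log2 ratio computed from these levels was 5.20, while the fold change in the authors' deposited table was 5.02, with an adjusted p of 0.0121. The ratio rests on a very low control level, since of the 32 transcript rows 8 were listed at 0 in control cells and only 4 lay between 0 and the level of Malt1 in the authors' deposited table. Under the Wald assumption its standard error was 1.21 and its 95% interval 2.64 to 7.39, the widest among the members above 0 in both groups. By size it was 5th of 13 higher transcript rows above 0 in both groups. The transcript rows nearest in both levels were those of the peroxisomal gene Acbd5 (0.962 in control and 45.9 in shPaupar cells) and of Ccdc28b (0.962 and 26.0) per the authors' deposited table.

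The Malt1 locus equals 1 of 13 annotated transcripts, Malt1-205, and stops well short of the gene's end at 65479067. Malt1-205 has 7 exons, against 16 in the coding transcript Malt1-201. It keeps intron 7 whole (2101 bases) and ends 1042 bases into intron 8. Malt1-205 thus holds the first 8 exons of Malt1-201, the first of them only in part, and none of those after them. Bases in no coding transcript make up 72.8% of its length, a far larger share than in Tnfaip3-205 or the Relb transcripts. Read from the start codon of Malt1-201, the frame meets a TAA stop 18 bases into intron 7, after 332 of 821 codons. The annotation lists 7 retained-intron transcripts of Malt1, 2 of Tnfaip3 and 3 of Relb, and 1 row was present for each gene. None of the 6 member loci overlaps another annotated gene (0 overlapping genes for each), so the strand of the reads does not bear on a neighbour here.

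Of 108 genes fixed as the innate cytokine and NF-kappaB pathway, the 6 members were the rows of the authors' deposited table, and 0 of the other 102 genes were. By role, these were 2 of 23 ligands (Il33 and Cxcl14, both lower), 1 of 21 receptors (Tlr4, higher), 1 of 29 adaptors and kinases (Malt1, higher), 1 of 5 NF-kappaB subunits (Relb, lower), 1 of 16 inhibitors (Tnfaip3, lower) and 0 of 14 genes listed only as targets, such as Icam1, Vcam1 and Lcn2. Each gene was listed under 1 role, so Tnfaip3, itself a known target, is not counted among the targets. The directions of Malt1, Relb and Tnfaip3 in this tally are those of transcript rows and not of the genes' total RNA. Receptor partners such as Cd14, Ly96 and Myd88, the IL-33 receptor gene Il1rl1 and the IkappaB gene Nfkbia were among those with no row. A gene with no row has no value here, so these counts do not show that the rest of the pathway was unchanged. The implied ranks leave at least 19 whole-gene and at least 518 transcript features that were not analysed here. Since the list was drawn up with the members known, nothing is read from its share of rows.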

How the data were processed

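RNA sequencing of 8 samples, 4 labelled shPaupar and 4 labelled control, is represented by a single comparison table. Per the labels' protocols, probes were used against rRNA and cDNA was primed at random, so unspliced RNA enters the measurement. Per the submitters' processing notes, the tools were StringTie, TopHat2, HISAT2, HISAT and CASAVA, with no role given. Neither counter, statistical test, strand setting nor genome build is given in the sources used here. The group levels that the authors deposited are a signal of unstated normalization, 1 per group. The authors' deposited log2 fold change sets shPaupar over control, with the same sign as the difference in levels for 155 features. The authors' deposited p-values are given unadjusted and adjusted, by an unnamed method. Depth is unknown, and whether the p-values measure spread between separate cultures is not stated.

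From these, log2 ratios of levels were computed, with levels below 1e-10 taken as 0. The table has 156 rows, 1 of them a repeat, and a row shifted by 1 column was read accordingly. Rows were placed as whole-gene or transcript by their loci in GENCODE M21 and, where these did not decide, by a shared adjusted p, the order of p-values, or the nearest whole rank. On 10 simulated tables the numbers of tests were recovered exactly, and 196 of 227 rows with undecided loci were placed correctly. All simulated transcript p-values were given to many digits, which was not so in the authors' deposited table. There, 14 of 32 transcript rows were precise enough to use, and 8 of these gave a whole rank. Of 123 whole-gene rows, 110 were precise enough to use and 83 gave a whole rank. Standard errors divide the deposited fold change by the normal quantile of its p-value.

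The members, lists and rules were chosen with earlier results of these data known. Named were all members, list genes among the rows, and for each member the 2 rows of its kind nearest in log2 levels (0 set to 0.1), without unnamed loci and Gm or Rik symbols. Genes named as examples without a row, Lsp1, and the rows with recurring low levels in the closing section (Itpr1, 6330403L08Rik and 4930506C21Rik) fall outside this rule. Levels are not known to be per length, so distances and ranks between rows compare listed levels and not expression of genes. Python 3.11.15, pandas 2.3.3, NumPy 2.4.6, SciPy 1.17.1 and matplotlib 3.10.9 were used.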

Additional observations from a re-analysis of the deposited data

How the results depend on the processing

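The log2 ratios of Tlr4, Il33, Cxcl14, Tnfaip3 and Malt1 kept their direction with pseudocounts of 0.1 and 1 and with the authors' deposited fold change, and moved by less than the derived standard error. The widest move was that of Malt1, from 5.20 to 4.30 with a pseudocount of 1. Relb has no ratio. With an adjusted p under 0.01 in the authors' deposited table, the transcript members numbered 0 higher and 1 lower (Tnfaip3), and the pathway genes 1 higher and 3 lower. At a log2 fold change of 1 or more in size, the whole-gene members numbered 1 higher and 0 lower, and the pathway genes 2 higher and 2 lower. With a level of at least 10 in both groups, the transcript members numbered 0 higher and 0 lower, because each has a group below 10. These changes follow from fewer rows being counted. Of all rows, 29.3% of whole-gene and 100% of transcript rows reached a log2 fold change of 1 or more in size. In order of adjusted p, the last whole-gene row under 0.01 was 79th of 123. The last transcript row under 0.01, that of Tnfaip3, was 15th of 32. The share of all rows with a level of at least 10 in both groups was not computed. The counts therefore set no member apart. Counts of pathway genes pool whole-gene and transcript rows. Leaving out each replicate was not run, and no depth or spread could limit the values, since the table holds 1 value per group. No paired analysis was possible because the table gives no values per sample.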

Other observations

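Low levels recur exactly among the transcript rows of the authors' deposited table. A control level of 0.962 is listed for Acbd5, Ccdc28b and 6330403L08Rik (3 rows), just under the 1.11 of Malt1, and a shPaupar level of 0.520 is listed for Itpr1 and 4930506C21Rik (2 rows), equal to 4 decimals. The lowest control level above 0 among transcript rows was 0.665. These rows were picked after their values were seen.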
